A study of Mus musculus with 11 samples.

Results

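The genes Sqle, Lss, Cyp51, Tm7sf2, Nsdhl, Sc5d and Dhcr7 encode enzymes that turn squalene into cholesterol, and they were examined in cell lines derived from ErbB2-driven mouse mammary tumors. They are the 7 post-squalene genes among the 4461 genes of the deposited table, which lists only genes that passed an adjusted p of 0.05 when the authors compared the genotypes. The members were therefore chosen by the difference between genotypes measured in these same libraries, and that difference is given here as a description, with no test. Differences between lines of 1 genotype were not the contrast that chose them and were tested. The spread within a genotype does enter the authors' adjusted p, so it had some part in which genes are listed. All 7 passed the filter on low counts.

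Each line came from a mammary tumor of a female FVB/N mouse that carries the NIC transgene, in which the MMTV promoter drives activated ErbB2 together with Cre recombinase in mammary epithelium. In 4 lines (KO_1922, KO_1925, KO_2768 and KO_4258) both Cpt1a alleles were conditional (NIC/Cpt1a L/L), so the Cre of the transgene also removes Cpt1a, the enzyme that lets long-chain fatty acids enter mitochondria. The other 2 lines (WT_5257 and WT_8905) had wild-type Cpt1a (NIC/Cpt1a +/+) and carry the same ErbB2 and Cre. Tumors were taken 8 weeks after they were palpated, and the untreated lines were grown in DMEM with 2% fetal bovine serum, EGF, insulin, hydrocortisone and bovine pituitary extract; the ages of the mice were not given. Genotypes follow the genotype label, since the sample titles describe the alleles the other way round. Each line had duplicate libraries except KO_2768, which had 1, for 11 libraries in all. Cpt1a is not among the genes listed, so the labels could not be checked against it here.

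Library totals were 18247312 to 25386785 reads in the 7 libraries of NIC/Cpt1a L/L lines and 15199378 to 17372643 in the 4 libraries of the controls, so each L/L library was the deeper. Of 14 markers of mammary epithelium, 1 was listed (Elf5), at 17.5 to 140 CPM (reads scaled to the library total) in the L/L lines and 303 and 331 CPM in the controls. Of 10 markers of fibroblasts and mesenchyme, 5 were listed, and their summed level was 0 to 5810 CPM in the L/L lines and 9.51 and 28.2 CPM in the controls, with all 5 at 0 in KO_4258. No endothelial marker of 4 was listed, and of 6 leukocyte markers only Csf1r was, at 0.0756 to 16.8 CPM in 3 L/L lines, 311 CPM in KO_4258, and 0.0321 and 0.458 CPM in the controls. The part of these differences in the results for the sterol genes was not tested.

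Cholesterol is built from acetyl-CoA through mevalonate and squalene. From squalene onward the enzymes sit in the membrane of the endoplasmic reticulum: the chain is oxidised, folded into the ring system of lanosterol, stripped of methyl groups, and its double bonds are moved and reduced. Most genes of the route are transcribed together under SREBP transcription factors, which are released from that membrane when its sterol content falls and are held back by Insig proteins when sterol is plentiful. Cells can instead take up cholesterol from serum lipoproteins.

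The sequences upstream of the genes are shown because SREBP factors act at promoters, usually beside NF-Y, which binds CCAAT, and Sp1, which binds GGGCGG. RefSeq windows from 250 bases before to 50 bases after a transcription start (GRCm38.p6, the build of the files) were matched for 6 of the 7 genes, with 8 windows in all. The window of Tm7sf2 lies within annotated exons and is not printed. Of the 3 windows of Dhcr7 only window 1 gave a printed stretch. The CCAAT matches of Dhcr7 lie in window 3, which is not printed. The stretches that lie ahead of the annotated transcripts, 5′ to 3′ on the coding strand, are Lss, chr10:76531355-76531587 (+), Cyp51, chr5:4104747-4104947 (-), Nsdhl, chrX:72918412-72918520 (+), Sc5d, chr9:42264301-42264550 (-) and Dhcr7, chr7:143822917-143823144 (+). Capitals mark matches, on either strand, to the NF-Y letters, the Sp1 letters or ATCACNNCA, a form of the sterol regulatory element in which N is any base. On the other strand the NF-Y letters read ATTGG and those of Sp1 read CCGCCC.
Lss: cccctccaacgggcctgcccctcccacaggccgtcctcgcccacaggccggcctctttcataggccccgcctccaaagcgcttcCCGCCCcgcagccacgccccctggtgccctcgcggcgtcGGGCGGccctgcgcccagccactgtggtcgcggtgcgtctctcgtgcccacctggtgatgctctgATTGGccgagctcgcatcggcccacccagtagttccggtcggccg
Cyp51: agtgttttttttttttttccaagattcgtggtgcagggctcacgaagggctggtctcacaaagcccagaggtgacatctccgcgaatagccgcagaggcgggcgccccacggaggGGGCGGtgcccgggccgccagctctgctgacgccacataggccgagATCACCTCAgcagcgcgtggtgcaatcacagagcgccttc
Nsdhl: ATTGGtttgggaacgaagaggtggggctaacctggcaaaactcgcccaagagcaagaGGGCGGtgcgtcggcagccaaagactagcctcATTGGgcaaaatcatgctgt
Sc5d: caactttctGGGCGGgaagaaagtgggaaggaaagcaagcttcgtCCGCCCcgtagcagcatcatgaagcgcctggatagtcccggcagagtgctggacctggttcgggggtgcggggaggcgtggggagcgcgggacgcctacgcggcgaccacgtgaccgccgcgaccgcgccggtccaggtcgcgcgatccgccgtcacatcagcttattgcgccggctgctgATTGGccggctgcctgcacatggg
Dhcr7: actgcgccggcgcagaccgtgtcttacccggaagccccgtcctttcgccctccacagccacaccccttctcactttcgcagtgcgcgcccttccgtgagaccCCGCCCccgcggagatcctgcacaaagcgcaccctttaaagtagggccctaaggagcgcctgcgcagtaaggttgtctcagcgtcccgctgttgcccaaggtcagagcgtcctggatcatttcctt

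ATCACNNCA was searched for on both strands, and its spelling was chosen after these sequences had been seen. It was found in the window of Cyp51, starting at -89 from the transcription start, and in none of the other member windows, while 2.77% of 32851 windows in the genome hold it. CCAAT was found in the windows of Lss, Cyp51, Tm7sf2, Nsdhl and Sc5d and in 1 of the 3 windows of Dhcr7, and 37.4% of all windows hold it. GGGCGG was found in the windows of Lss, Cyp51, Tm7sf2, Nsdhl and Sc5d and in all but 1 of the 3 windows of Dhcr7. Of all windows, 35.7% hold it. A match says only that the letters are there, and a window without a match says nothing of the factor.

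All 7 transcripts had a lower mean level in the NIC/Cpt1a L/L lines than in the NIC/Cpt1a +/+ lines. Levels are given in FPKM, reads scaled to gene length and library total, as the mean of a line's libraries, with n = 4 L/L lines and n = 2 control lines. Log2 fold changes were fitted to read counts with further scaling of the library totals, so they differ from the ratio of the FPKM means. Their median over the 7 genes was -1.48 as fitted and -1.34 from FPKM. In these cultures a smaller number of cells that express a gene and less RNA per cell cannot be told apart.

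Squalene epoxidase (Sqle, ENSMUSG00000022351, chr15:59315077-59331192, + strand) adds oxygen to squalene and is one of the rate-limiting steps of the route. Its level was 28.9 FPKM in KO_1922, 44.3 in KO_1925, 18.5 in KO_2768 and 29.4 in KO_4258, against 59.4 FPKM in both WT_5257 and WT_8905. Every L/L line was below both controls, and the L/L mean of 30.3 ± 10.6 FPKM (SD, n = 4) was 51.0% of the control mean of 59.4. The fitted log2 fold change was -1.11 (SE 0.33).

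Lanosterol synthase (Lss, ENSMUSG00000033105, chr10:76531588-76557138, + strand) closes the rings of oxidosqualene to give lanosterol. Its level was 7.07 FPKM in KO_1922, 9.92 in KO_1925, 8.52 in KO_2768 and 6.59 in KO_4258, against 34.4 in WT_5257 and 22.3 in WT_8905. The 4 L/L lines lay close together, at 8.03 ± 1.50 FPKM (SD, n = 4), and far under the controls, at 28.3 ± 8.57 (SD, n = 2). The log2 fold change was -1.95 (SE 0.24), and it was -1.63 when WT_5257, the control with the higher level, was left out. The antisense gene 4930483K19Rik shares 381 exon bases with Lss, or 3.53% of those of Lss, and was itself at most at 0.418 CPM; strand use in the counting is not given in the sources used here.

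The cytochrome P450 Cyp51 (ENSMUSG00000001467, chr5:4081145-4104746, - strand) removes the first methyl group from lanosterol. Its level was 27.4 FPKM in KO_1922, 39.8 in KO_1925, 21.9 in KO_2768 and 20.0 in KO_4258, against 71.1 in WT_5257 and 86.0 in WT_8905. No L/L line reached either control, and the L/L mean of 27.3 ± 8.94 FPKM (SD, n = 4) was 34.7% of the control mean of 78.6 ± 10.5 (SD, n = 2). The fitted log2 fold change was -1.67 (SE 0.29), against -1.53 from FPKM. Cyp51 shares 166 exon bases (3.76%) with Akap9 on the opposite strand.

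Tm7sf2 (ENSMUSG00000024799, chr19:6062821-6068373, - strand) encodes a sterol reductase that removes the double bond left by Cyp51, a reaction that the lamin B receptor Lbr can also carry out. Its level was 5.47 FPKM in KO_1922, 7.37 in KO_1925, 4.79 in KO_2768 and 3.90 in KO_4258, against 25.1 in WT_5257 and 28.0 in WT_8905. This was the widest separation of the 7 genes: the control with the lower level was 3.40-fold above the L/L line with the highest, and the L/L mean was 20.3% of the control mean. The log2 fold change was -2.44 (SE 0.30), from 120 to 696 reads per library, the fewest reads of any member. Tm7sf2 shares 532 exon bases (12.1%) with Vps51 on the same strand.

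Nsdhl (ENSMUSG00000031349, chrX:72918557-72958514, + strand), an X-linked dehydrogenase, takes part in removing the paired methyl groups that remain on the sterol ring. Its level was 21.1 FPKM in KO_1922, 35.5 in KO_1925, 17.6 in KO_2768 and 12.0 in KO_4258, against 66.8 in WT_5257 and 42.0 in WT_8905. The groups did not overlap, but KO_1925 came within 1.18-fold of WT_8905. The L/L mean was 39.6% of the control mean, with a log2 fold change of -1.48 (SE 0.42).

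The last pair of enzymes in the set act on the double bonds of the B ring. Sc5d (ENSMUSG00000032018, chr9:42254177-42264300, - strand), a desaturase that makes 7-dehydrocholesterol, had a level of 37.6 FPKM in KO_1922, 31.1 in KO_1925, 43.3 in KO_2768 and 28.0 in KO_4258, against 48.1 in WT_5257 and 50.6 in WT_8905. It had the smallest genotype difference of the 7, with an L/L mean at 71.0% of the control mean and a log2 fold change of -0.63 (SE 0.20), and KO_2768 lay within 1.11-fold of WT_5257. Dhcr7 (ENSMUSG00000058454, chr7:143823145-143848410, + strand), which reduces 7-dehydrocholesterol to cholesterol, was at 38.6 FPKM in KO_1922, 69.9 in KO_1925, 29.2 in KO_2768 and 19.6 in KO_4258, against 63.4 in WT_5257 and 96.1 in WT_8905. It was the gene whose lines overlapped, KO_1925 being above WT_5257, and its log2 fold change was -1.17 (SE 0.49).

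**Figure D1:**
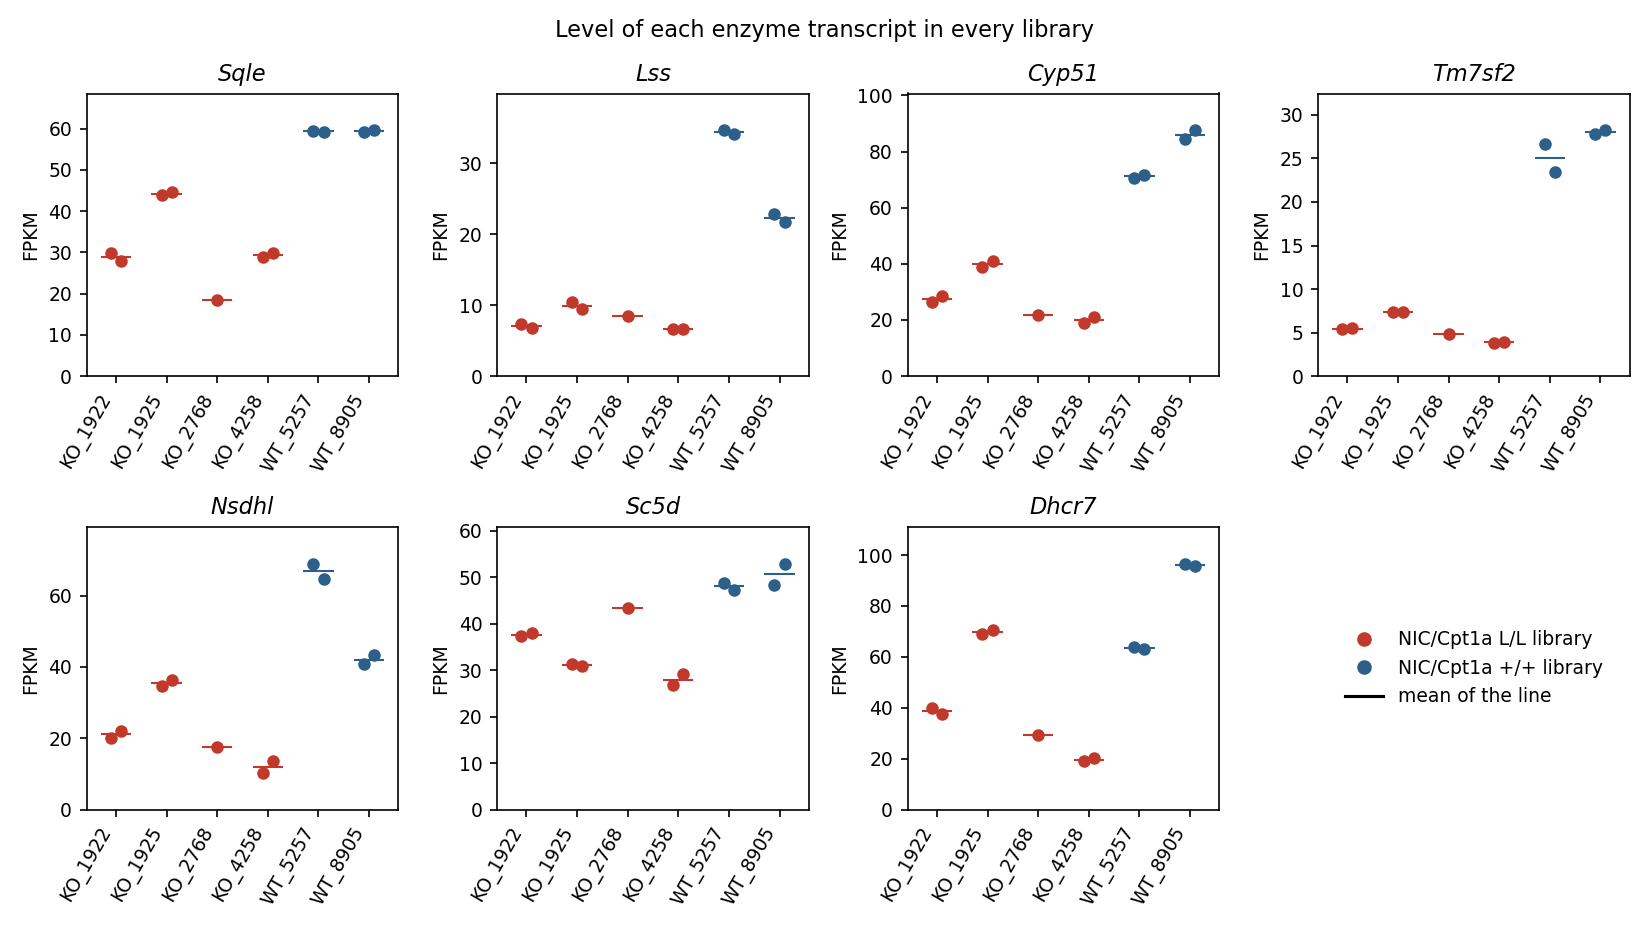
Level of each of the 7 transcripts in FPKM (vertical axes, linear from 0, with a scale of its own for each gene) in every library, as points, with the mean of the line as a bar. Lss and Tm7sf2 have the widest gaps between genotypes, Sc5d the narrowest, and in Dhcr7 the KO_1925 libraries (line mean 69.9 FPKM) lie above those of WT_5257 (63.4 FPKM).

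Thus 6 of the 7 genes were lower in every L/L line than in both controls, on the CPM scale. Of all 4278 genes that passed the filter by line, 39.4% were so placed, and since the table was selected on this contrast nothing is read from the comparison. The median log2 fold change of the 7 genes was -1.48, against 0.41 over all genes tested and -1.08 over the 1780 genes with a negative value. The median was -1.39 without KO_2768 and -1.23 without KO_4258. KO_1922 and KO_1925 also held fibroblast and mesenchyme markers (1919 and 2733 CPM summed), so the part of the markers was not tested by this.

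Summed over the 7 genes, the level was 166 FPKM in KO_1922, 238 in KO_1925, 144 in KO_2768 and 120 in KO_4258, against 368 in WT_5257 and 384 in WT_8905. The controls were close to each other while the L/L lines ranged widely. The sum was 2.25-fold higher in the controls (376 ± 11.4 FPKM, SD, n = 2) than in the L/L lines (167 ± 51.1, SD, n = 4).

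The genes did not keep their proportions. Tm7sf2 made up 3.10% to 3.33% of the sum in the 4 L/L lines and 6.81% and 7.28% in the controls. Sc5d went the other way in 3 of the L/L lines, with 22.6% in KO_1922, 30.1% in KO_2768 and 23.4% in KO_4258, while KO_1925 (13.1%) matched the controls (13.1% and 13.2%). In the controls Cyp51 and Dhcr7 were the largest contributors in WT_8905 (22.4% and 25.0%), and Cyp51 and Nsdhl in WT_5257 (19.3% and 18.1%). Dhcr7 had the largest share in KO_1922 and KO_1925, Sc5d in KO_2768, and Sqle in KO_4258. Tm7sf2 had the lowest share in all 4 L/L lines and in WT_5257, and Lss in WT_8905.

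**Figure D2:**
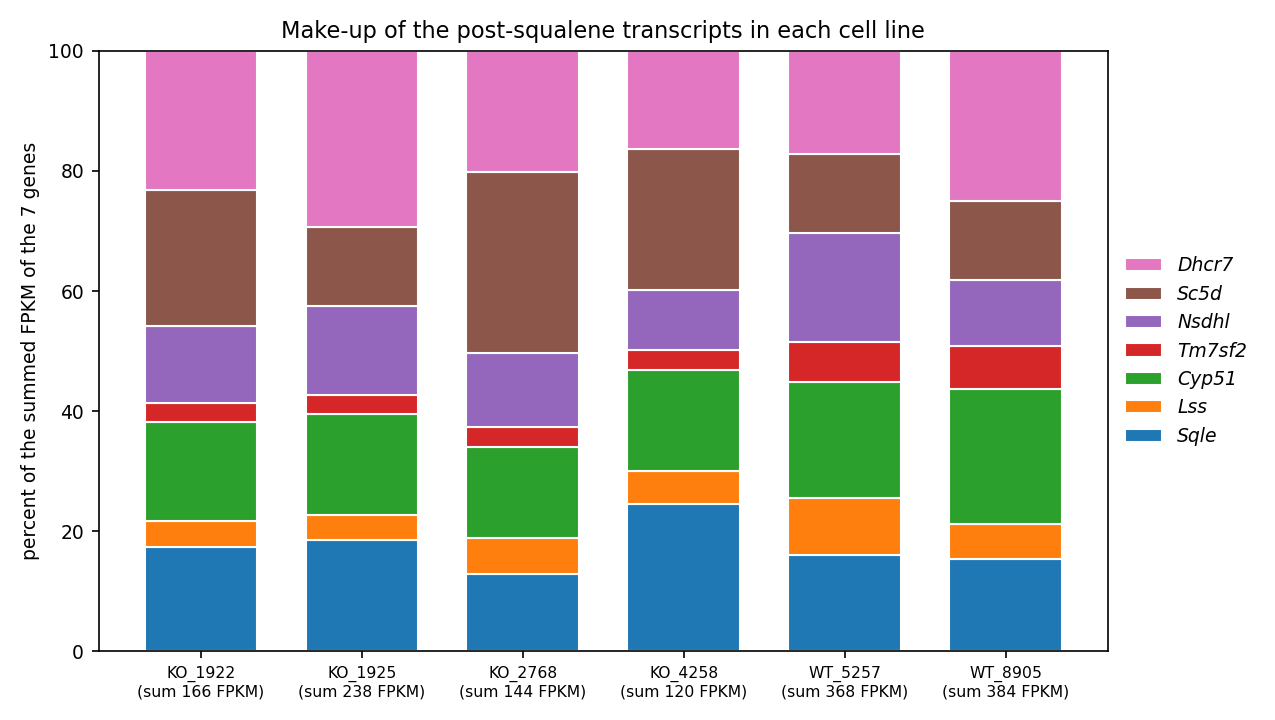
Share of each gene in the summed FPKM of the 7 genes (vertical axis, percent) for each of the 6 cell lines, with the sum printed under the bar. Tm7sf2 takes 3.10% to 3.33% in the L/L lines and 6.81% and 7.28% in the controls, while Sc5d reaches 30.1% in KO_2768.

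The lines within the NIC/Cpt1a L/L group were then compared with edgeR's quasi-likelihood test on the read counts of single libraries, adjusted over all 4389 genes tested. The replicates in this test are the duplicates of a line, so a call speaks of these lines and not of the genotype, and KO_2768, with 1 library, was assumed to vary like the others. All 7 genes differed among the 4 L/L lines. So did 88.4% of all genes tested, so a call alone is not particular to sterol synthesis. The sizes differed more: the log2 range from the lowest to the highest L/L line was 1.74 for Dhcr7, 1.48 for Nsdhl, 1.23 for Sqle, 0.90 for Cyp51, 0.83 for Tm7sf2, 0.57 for Sc5d and 0.50 for Lss, with a median of 0.90 against 1.05 over all genes tested. Without KO_2768, the line with a single library, the range was 0.63 for Sqle and 0.32 for Sc5d. Duplicates of a line differed by a median of 0.068 on the log2 scale for these genes, and by at most 0.414 (Nsdhl in KO_4258).

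KO_1925 had the highest level of the 4 L/L lines for each gene except Sc5d. The pairwise comparisons with KO_1925 were singled out after the values had been seen. Against KO_1922, 6 of the 7 genes were higher in KO_1925 at an edgeR adjusted p under 0.05, as were 21.3% of all genes tested. The differences were 0.87 for Dhcr7, 0.77 for Nsdhl, 0.63 for Sqle, 0.56 for Cyp51, 0.50 for Lss and 0.45 for Tm7sf2, all log2. Against KO_2768 these 6 genes were higher, compared with 31.1% of all genes, and against KO_4258 again the 6, compared with 37.8%. The weakest of these 18 calls was Lss over KO_2768, by 0.20 on the log2 scale (SE 0.07, edgeR adjusted p = 0.0197), and it was lost, leaving 5 of 7 genes over KO_2768, without KO_1925A, WT_8905A or WT_8905B.

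At the other end, KO_4258 had the lowest level of Cyp51, Tm7sf2, Nsdhl, Sc5d and Dhcr7 on both scales, and of Lss in FPKM (6.59 against 7.07 in KO_1922) but not in CPM (47.2 against 46.8). The steepest difference between L/L lines was in Dhcr7, which was lower in KO_4258 than in KO_1925 by 1.74 on the log2 scale (SE 0.06, edgeR adjusted p = 9.67e-35). Sqle had another order, with its lowest level in KO_2768, under KO_4258 by 0.73 (SE 0.07, edgeR adjusted p = 1.35e-14). Thus in KO_4258 the first enzyme of the set had the second highest level of the group and the last enzyme its lowest. That second place was narrow, since Sqle was above KO_1922 by only 0.13 (SE 0.05, edgeR adjusted p = 0.0296). The FPKM of the duplicates interleaved, at 28.8 and 30.0 in KO_4258 and 29.9 and 28.0 in KO_1922.

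Several neighbours in the order of levels could not be separated. For Lss, KO_1922 and KO_4258 differed by 0.0023 (SE 0.07, edgeR adjusted p = 0.986), and for Cyp51, KO_2768 and KO_4258 differed by 0.06 (SE 0.07, edgeR adjusted p = 0.430). Tm7sf2 did not differ beyond its error between KO_1922 and KO_2768 (edgeR adjusted p = 0.419) or between KO_2768 and KO_4258 (0.201). For Sc5d, KO_1925 and KO_4258 differed by 0.06 (SE 0.06, edgeR adjusted p = 0.358). KO_2768 had the highest Sc5d, above KO_1922 by 0.24 (edgeR adjusted p = 0.00253), above KO_1925 by 0.50 (1.51e-08) and above KO_4258 by 0.57 (3.90e-10).

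The 2 NIC/Cpt1a +/+ lines were compared in the same fit. Lss was higher in WT_5257 than in WT_8905 by 0.55 on the log2 scale (SE 0.05, edgeR adjusted p = 2.76e-13), and so was Nsdhl, by 0.60 (SE 0.07, edgeR adjusted p = 2.83e-11). Dhcr7 differed in the opposite direction, by -0.67 (SE 0.05, edgeR adjusted p = 2.26e-17), as did Cyp51, by -0.35 (SE 0.05, edgeR adjusted p = 7.71e-08). These 4 differences had the same sign and were called under every alternative setting tried. In all, 2 of the 7 genes were higher in WT_5257, compared with 24% of all genes tested, and 4 were higher in WT_8905, compared with 36.7%. The other pair of calls were the small differences of Tm7sf2 (-0.23, SE 0.09, edgeR adjusted p = 0.0203) and Sc5d (-0.15, SE 0.06, edgeR adjusted p = 0.0277), and both were lost with the DESeq2 test (DESeq2 adjusted p = 0.125 and 0.0931), with either other set of size factors, and without any 1 of the libraries KO_1925A, WT_5257B, WT_8905A or WT_8905B. Sqle, at -0.07 (SE 0.05, edgeR adjusted p = 0.213), was not called. The median size of the difference was 0.35 for the 7 genes and 0.52 for all genes tested.

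**Figure D3:**
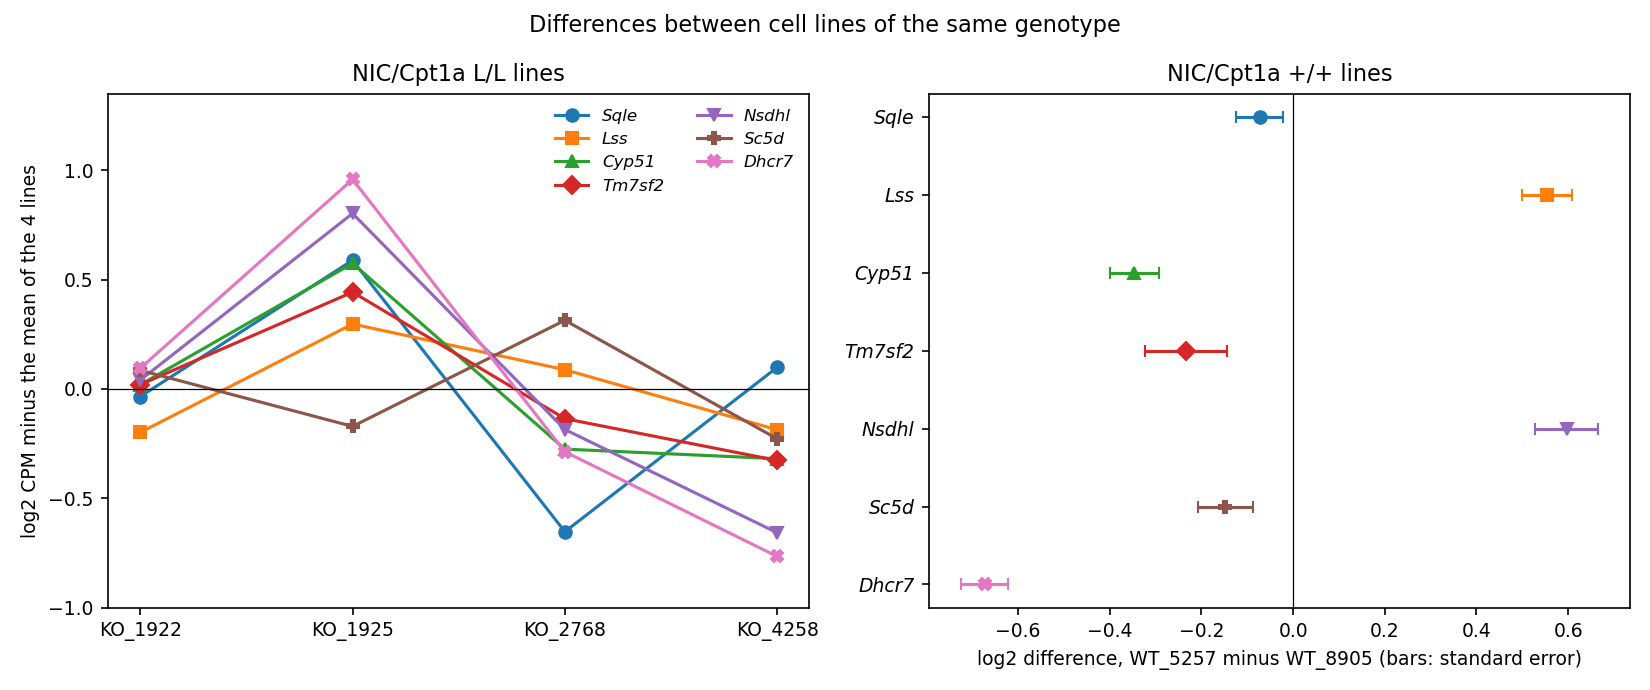
Left, log2 CPM of each gene in the 4 NIC/Cpt1a L/L lines minus its mean over them, with segments that join the values of 1 gene and stand for no order of the lines. Right, log2 difference of WT_5257 minus WT_8905 with its standard error, positive for Lss (0.55) and Nsdhl (0.60) and most negative for Dhcr7 (-0.67).

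Across the 6 lines, with log2 CPM centred within each genotype so that the difference that chose the genes drops out, the members followed one another unevenly. Pearson's r of a gene with the mean of the other 6 was 0.963 for Tm7sf2, 0.925 for Cyp51, 0.886 for Dhcr7, 0.838 for Nsdhl, 0.521 for Sqle, 0.418 for Lss and -0.299 for Sc5d. These are descriptions over n = 6 points that share libraries and scaling, and no p is given. Sc5d was the gene that ran against the rest.

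The 5 genes whose centred profile was most like the mean of the 7 were Zscan4b (r = 0.9997), Asxl3 (0.989), Prpf38b (0.986), Foxn1 (0.984) and Notum (0.983), over the same 6 lines. That mean was near its centre in the controls (-0.011 in WT_5257, 0.011 in WT_8905), against 0.50 in KO_1925 and -0.34 in KO_4258. Likeness to it therefore rests mainly on the L/L lines. They were taken from 3880 genes, of which 2.19% had an r above 0.9. Zscan4b reached 1.66 CPM in KO_1925, its highest line, and Asxl3 4.02, so their profiles rest on few reads, whereas Prpf38b, which encodes a splicing factor, was at 107 CPM or more in every line. None of the 5 encodes an enzyme of sterol synthesis.

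The rest of the pathway was read from fixed gene lists. Of 7 other genes that act after squalene, among them Msmo1, Hsd17b7 and Ebp, 0 were rows of the table, so they were not analysed here, and the set above is not the whole route. Of 12 genes from acetyl-CoA to squalene, 8 were rows, all with a negative log2 fold change and 7 with no overlap of the lines. Of all genes tested, 41.6% had a negative value and 39.4% were lower in every L/L line than in both controls. The median of the 8 genes was -1.30. The values, as log2 fold changes, were -0.95 (SE 0.26) for the thiolase Acat1, -1.40 (SE 0.39) for the thiolase Acat2, -1.29 (SE 0.36) for the HMG-CoA synthase Hmgcs1, -1.80 (SE 0.28) for phosphomevalonate kinase Pmvk, -1.16 (SE 0.45) for mevalonate decarboxylase Mvd, -1.54 (SE 0.57) for isopentenyl diphosphate isomerase Idi1, -1.32 (SE 0.24) for farnesyl diphosphate synthase Fdps and -0.78 (SE 0.31) for squalene synthase Fdft1. Like the members, these rows were selected on the contrast. KO_1925 had the highest L/L level of 5 of the 8 (Acat2, Hmgcs1, Idi1, Fdps and Fdft1), and Fdft1, which makes squalene, overlapped between genotypes through that line, as Dhcr7 did.

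**Figure D4:**
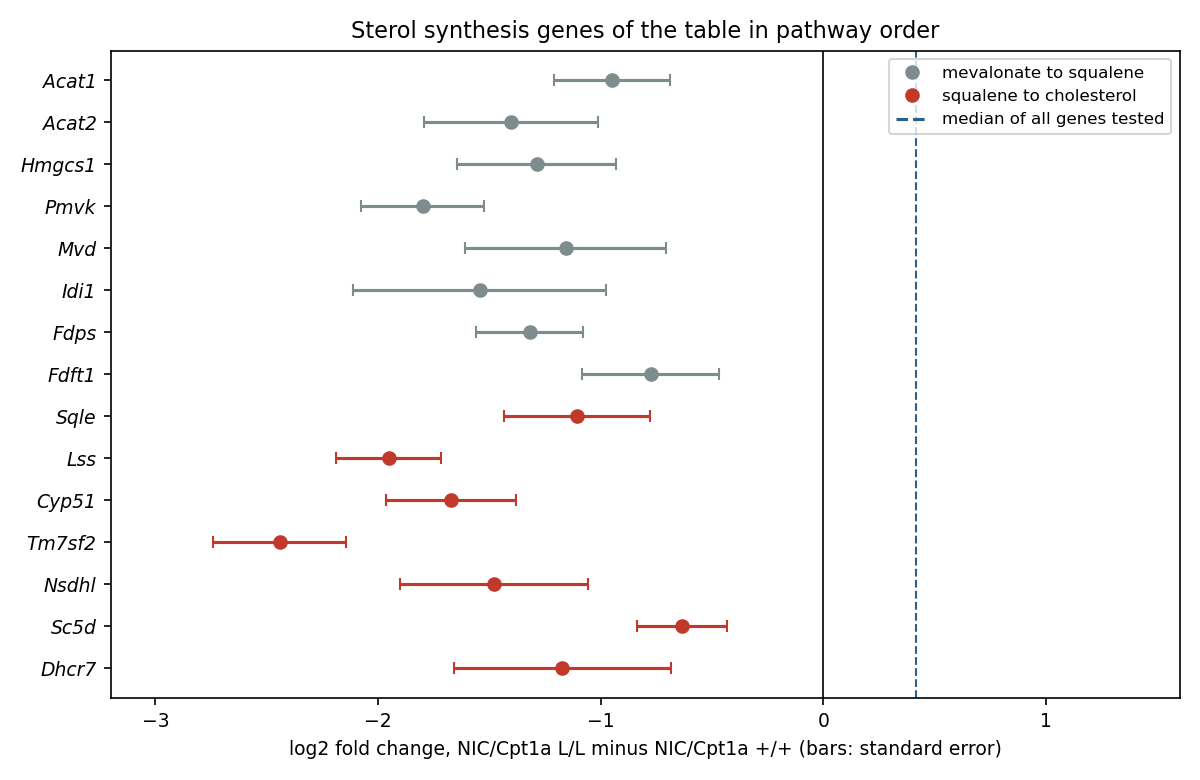
Log2 fold change of NIC/Cpt1a L/L minus NIC/Cpt1a +/+ lines (horizontal axis, bars are standard errors) for the sterol synthesis genes of the table, ordered from acetyl-CoA to cholesterol. All 15 points lie under 0, from -2.44 for Tm7sf2 to -0.63 for Sc5d, as do 41.6% of all genes tested. The dashed line marks the median of all genes tested, 0.41.

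Of 16 genes of SREBP control and lipoprotein uptake, 8 were rows, and 6 of them had a lower CPM in every L/L line than in both controls, as had 39.4% of all genes tested. These rows too were selected on the contrast. The log2 fold change was -1.64 (SE 0.31) for Srebf1, which encodes a SREBP factor, and -0.74 (SE 0.22) for Scap, the escort protein that senses sterol. Insig1, itself an SREBP target, had -1.57 (SE 0.70), with 43.0 to 59.5 CPM in 3 L/L lines and 214 CPM in KO_4258, against 221 and 325 CPM in the controls. KO_4258 thus combined the lowest CPM of 5 of the 7 post-squalene genes with the highest Insig1 CPM of its group. Insig2 had a value of 0.65 (SE 0.37) and the endocytic receptor Lrp1, named after its values were seen, 2.24 (SE 1.56), and the lines of both overlapped. Srebf2 was not analysed here.

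Electron donors serve the oxidases of the route, since Sqle and Cyp51 draw on cytochrome P450 reductase and Sc5d on cytochrome b5. Of 9 such genes 2 were rows, the cytochrome b5 reductases Cyb5r2 and Cyb5r3. Cyb5r2 was at 0.866 to 2.40 CPM in the L/L lines, 50.7 in WT_5257 and 5.07 in WT_8905, so the controls themselves were far apart. Its log2 fold change was -4.17 (SE 0.92), and -1.71 (SE 0.79) without WT_5257. Cyb5r3 had a log2 fold change of 0.15 (SE 0.18), and its lines overlapped. Of 10 SREBP-1 targets of fatty acid synthesis and desaturation 7 were rows, all 7 negative, with a median of -1.26. Of all genes tested 41.6% were negative, and these rows too were selected on the contrast.

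The 7 genes lie on 7 different chromosomes. Within 5 Mb, the median log2 fold change of the tested neighbours was 0.64 for Sqle (16 genes), 0.22 for Lss (50), 4.45 for Cyp51 (8), 0.65 for Tm7sf2 (72), 0.59 for Nsdhl (25) and 0.49 for Dhcr7 (31). For Sc5d the median was -0.48 over 24 neighbours, of which 14 were lower. Over all genes tested the median was 0.41 and 41.6% were lower. All these rows were selected on the contrast between genotypes, so nothing is read from the neighbours.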

How the data were processed

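RNA was sequenced from 6 mouse mammary tumor lines, with 7 libraries from 4 NIC/Cpt1a L/L lines and 4 from 2 NIC/Cpt1a +/+ lines. The authors aligned reads to mm10 with STAR and counted them per gene with HTSeq. The deposited table holds raw read counts, a normalized signal in which the authors divided the counts by size factors, and the authors' FPKM. It also holds log2 fold changes and p-values from the authors' comparison, which were not used. It lists only genes past an adjusted p of 0.05 in their comparison, and genes outside it were not analysed here. Their methods name DESeq2 for that comparison, while the sample records name edgeR and limma.

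Library totals were recovered from counts, FPKM and gene lengths and multiplied by TMM factors (0.924 to 1.06 by line), computed on the listed genes. Each library had 120 to 5615 reads per member, and intervals cover the spread between samples only. edgeR 4.0.16 in R 4.3.3 was run after filterByExpr on counts summed by line (4278 genes) for genotype values, without a test, and on single libraries (4389 genes) for quasi-likelihood tests between lines of 1 genotype, with Benjamini-Hochberg adjustment over all genes tested. What separates the duplicates of a line beyond the label of a biological replicate is not given in the sources used here, so p-values measure only the spread between them, which may be technical. The fits were also run on simulated data with far fewer differing genes than here, which checks the code and not these results.

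The text names all 7 members, the listed genes of the mevalonate route, Srebf1, Srebf2, Insig1, Insig2 and Scap, and the 5 genes with the most similar centred profile among those tested that varied enough (CPM plus 0.5, log2). Some genes of the lists are not reported here by name. Members and lists were chosen with earlier results of these data known. Alternatives were DESeq2 1.42.0, other size factors, no filter, FPKM, every library as a sample, a replicate block, and leaving out each library or line.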

Additional observations from a re-analysis of the deposited data

How the results depend on the processing

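For the 7 genes, the count differing among the NIC/Cpt1a L/L lines was 7 under every alternative, including DESeq2, and the median genotype log2 fold change stayed negative, from -1.74 without KO_1925 to -1.23 without KO_4258, with -1.56 under DESeq2 size factors and -1.31 under the authors' size factors, an alternative added after the data were seen. The count without overlap between genotypes was 6 or 7, and 7 with DESeq2 size factors or without KO_1925 or WT_5257, where Dhcr7 no longer overlapped. The count differing between the control lines was 6, and 4 to 6 when each library was left out, with 4 without KO_1925A, WT_5257B, WT_8905A or WT_8905B. It was 5 with DESeq2 size factors and 4 with the DESeq2 test or the authors' size factors. The difference of WT_5257 minus WT_8905 reversed for Sqle to 0.13 with DESeq2 size factors (edgeR adjusted p = 0.0247) and 0.015 with the authors' size factors, and ranged from -0.077 to 0.057 when a library was left out. It reversed for Sc5d to 0.054 with DESeq2 size factors and ranged from -0.17 to 0.043 when a library was left out. DESeq2 size factors rescale whole libraries and raised this difference for all 7 genes, for Lss from 0.55 to 0.76 and for Dhcr7 from -0.67 to -0.47. The cause of the reversals was not tested. The call of Lss in KO_1925 over KO_2768 was also lost with DESeq2 size factors (edgeR adjusted p = 0.0932), the authors' size factors (0.0967) and the replicate block (0.0716).

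The duplicate numbers did not pair the libraries. Over 10 pairs of lines the correlation of duplicate differences was -0.0405 to 0.0381. A fit with the replicate block gave 7 genes differing among the L/L lines, 5 between the control lines, where Tm7sf2 was no longer called, and a median genotype log2 fold change of -1.41. The median over all genes tested was 0.41, and 0.60 with the authors' size factors and 0.36 with DESeq2 size factors. Tm7sf2, with as few as 120 reads in a library, is the member whose small differences are least well resolved.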

Other observations

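Of 13 genes of sterol export, esterification and oxysterol metabolism, 4 were rows of the table, of which 1 was higher and 1 lower in every L/L line. Soat1, which esterifies cholesterol for storage and was singled out after its values were seen, was at 37.6 CPM in KO_1922, 36.0 in KO_1925, 28.2 in KO_2768 and 13.5 in KO_4258, against 2.47 in WT_5257 and 7.20 in WT_8905. Every L/L line was above both controls, with a log2 fold change of 2.57 (SE 0.67). Cyp46a1, which hydroxylates cholesterol, was lower in every L/L line (log2 fold change -1.56, SE 0.62). The lines overlapped for the sterol exporter Abcg1 (3.56, SE 2.29) and the cholesteryl ester hydrolase Nceh1 (1.10, SE 0.52). All 4 rows were selected on this contrast, so no test is given.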
